A study of Mus musculus with 8 samples.

Results

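The Dusp genes described here encode dual-specificity phosphatases that act on mitogen-activated protein (MAP) kinases. They were chosen by name, as the rows of the deposited table listed as Dusp1, Dusp2, Dusp4, Dusp5, Dusp6, Dusp7, Dusp8, Dusp10, Dusp14 and Dusp16, and all 10 were found among its 34478 genes. The study treated 4 primary cell lines of murine pancreatic ductal adenocarcinoma (PDAC), numbered #1, #3, #5 and #10, with the MEK inhibitor trametinib (MEKi) or with its solvent DMSO, and sequenced 1 stranded mRNA library per line and treatment, 8 in all. Each MEKi culture received the IC50 of its own line for 48 h, and the time in DMSO is not given in the labels. All lines, in either treatment, came from tumors of mice whose genotype includes Ptf1awt/Cre and Trp53loxP/loxP. Cre is expressed from the Ptf1a locus, which is active in pancreatic progenitor and acinar cells, where it deletes Trp53. The sources do not say whether each line came from a different mouse, and the ages of the mice are not given in them. The comparison asks what happens to the phosphatases of the pathway once MEK, the kinase above ERK, is inhibited, and whether those that act on ERK differ from those directed at the stress kinases JNK and p38.

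MAP kinases are switched on by phosphorylation of a threonine and a tyrosine in their activation loop, and dual-specificity phosphatases remove both phosphates. DUSP6 and DUSP7 hold ERK in the cytoplasm and DUSP5 acts on ERK in the nucleus, while DUSP1, DUSP2 and DUSP4 are nuclear enzymes with broader substrates. DUSP8, DUSP10 and DUSP16 are directed at JNK and p38, and DUSP14 is a small atypical member without the MAP kinase-binding domain of the others. Many Dusp genes are themselves transcribed in response to MAP kinase signaling, and Dusp6 is widely used as a readout of ERK activity in tumor cells.

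The stretches upstream of the start sites of Dusp6, Dusp5, Dusp1 and Dusp8 are shown because these genes had the largest falls and the largest rises of the group. They are RefSeq promoter sequences of build GRCm38.p6, each 5′ to 3′ on the strand of its gene, upstream of the RefSeq start site and without any annotated exon of the gene, with a full cAMP response element (CRE, TGACGTCA) or CArG box, the site bound by serum response factor, in capitals. The stretches lie at chr10:99262981-99263230 on the plus strand for Dusp6, chr19:53528895-53529108 on the plus strand for Dusp5, chr17:26508520-26508722 on the minus strand for Dusp1 and chr7:142095285-142095534 on the minus strand for Dusp8. For Dusp1 and Dusp8 the gene spans given later, which cover all GENCODE transcripts, reach further upstream than the RefSeq start, so these stretches lie within them.
Dusp6: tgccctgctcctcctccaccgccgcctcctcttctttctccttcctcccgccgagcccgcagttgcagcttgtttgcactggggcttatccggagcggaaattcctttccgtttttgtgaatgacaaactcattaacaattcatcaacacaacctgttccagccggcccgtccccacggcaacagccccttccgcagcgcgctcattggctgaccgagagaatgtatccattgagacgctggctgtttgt
Dusp5: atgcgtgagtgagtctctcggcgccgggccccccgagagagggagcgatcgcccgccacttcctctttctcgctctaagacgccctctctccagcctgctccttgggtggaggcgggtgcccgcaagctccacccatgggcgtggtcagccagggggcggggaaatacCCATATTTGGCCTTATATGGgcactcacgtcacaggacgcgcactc
Dusp1: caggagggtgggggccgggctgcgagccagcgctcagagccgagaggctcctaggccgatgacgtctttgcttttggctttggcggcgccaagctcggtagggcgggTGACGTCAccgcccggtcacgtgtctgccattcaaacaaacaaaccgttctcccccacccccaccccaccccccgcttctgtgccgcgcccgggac
Dusp8: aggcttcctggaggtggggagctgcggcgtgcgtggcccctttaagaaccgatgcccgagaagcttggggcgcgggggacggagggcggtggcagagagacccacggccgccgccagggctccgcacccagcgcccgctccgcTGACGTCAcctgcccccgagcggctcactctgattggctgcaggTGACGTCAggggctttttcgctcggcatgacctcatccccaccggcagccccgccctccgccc

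Promoter entries were found for 9 of the 10 genes, all but Dusp4. Over the 250 bases before the RefSeq start, searched on both strands, the full CRE was present in 2 of 9 members, Dusp1 and Dusp8, and in 1.55% of the 32851 mouse windows of that length. In Dusp8 it began 107 and 63 bases before the start, and in Dusp1 143 bases before it. Distances here run from the RefSeq start. The printed stretches of Dusp5 and Dusp1, 214 and 203 bases long, were cut at an annotated exon and end before that start. The CArG box was present in 1 of 9 members, Dusp5, as a pair of adjoining boxes that began 82 and 72 bases before the start, and in 1.47% of all windows. The shorter core TGACG, which is contained in the full CRE, was present in 4 of 9 members, Dusp1, Dusp5, Dusp8 and Dusp16, against 17.8% of all windows. The SP1 site GGGCGG was present in 7 of 9, all but Dusp6 and Dusp7, against 32.7%. In Dusp10 and Dusp14 the SP1 sites lay outside the stretch without annotated exons, which was 0 and 27 bases long in these genes. The ETS site CCGGAAG (6.91% of all windows), the AP-1 site TGANTCA (6.75%) and the FOXO site TGTTTAC (3.17%) were in none of the 9 windows. A match is a run of letters only, and no binding was measured in these cells.

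Library totals ran from 30680091 to 36385719 normalized counts, and the steps between low values put depth at an estimated 29300000 to 45900000 reads. Keratins and other ductal markers were high, with a summed level of 234765 to 362167 normalized counts in DMSO and 146466 to 240992 with MEKi, although Epcam reached at most 10.4, and Cldn4 and Sox9 were as low as 12.4 and 65.5 in single libraries. The 10 fibroblast markers summed to 106 to 369 in DMSO and to 458 to 1263 with MEKi, with Lum at 0 in every library, Col1a1 at up to 1110, Pdgfra at up to 105 and Col3a1 at up to 97.2. The 8 leukocyte markers in the table summed to 1122 to 2675 and 1339 to 3807, most of it Cd14, with Ptprc at 4.05 to 17.2. Endothelial markers (6 of 6 in the table) summed to 38.1 to 82.9 and 75.5 to 1779, with Pecam1 at 6.50 to 15.6, Vwf at up to 948 and Tek at up to 805. The acinar markers (5 of 6) summed to 25.6 to 247 and 18.5 to 123, with Cpa1 at 0 throughout and Cela1 at up to 247. The part of these marker levels in the Dusp results was not tested, and in bulk cultures fewer cells with a transcript and less of it per cell cannot be told apart. Trp53 stood at 196 to 355 normalized counts, a total per gene that does not show the deleted exons.

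With MEKi, Dusp5, Dusp6 and Dusp4 fell and Dusp1, Dusp8, Dusp10, Dusp16 and Dusp14 rose. Of the 10 members, 9 passed the filter on low values, a mean normalized count of at least 10, and Dusp2 did not. A limma fit that blocked on cell line, with p-values adjusted by Benjamini-Hochberg over all 15888 genes tested, put 5 members higher and 3 lower at the threshold of 0.05, and 1, Dusp7, did not pass. Trametinib moved much of the transcriptome, since 53.0% of all genes tested passed in either direction, 27.3% higher and 25.6% lower. A count of 8 of 9 therefore stands against a background in which passing was common. The DMSO and MEKi libraries did not overlap for 7 of the 9 members, against 31.3% of all genes tested. The median log2 fold change of the 9 was 1.07, against 0.07 over all genes tested, and since members moved both ways it is the value of Dusp14, the member that rose least. Each library is from 1 culture, and p-values measure the spread between the 4 lines.

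**Figure D1:**
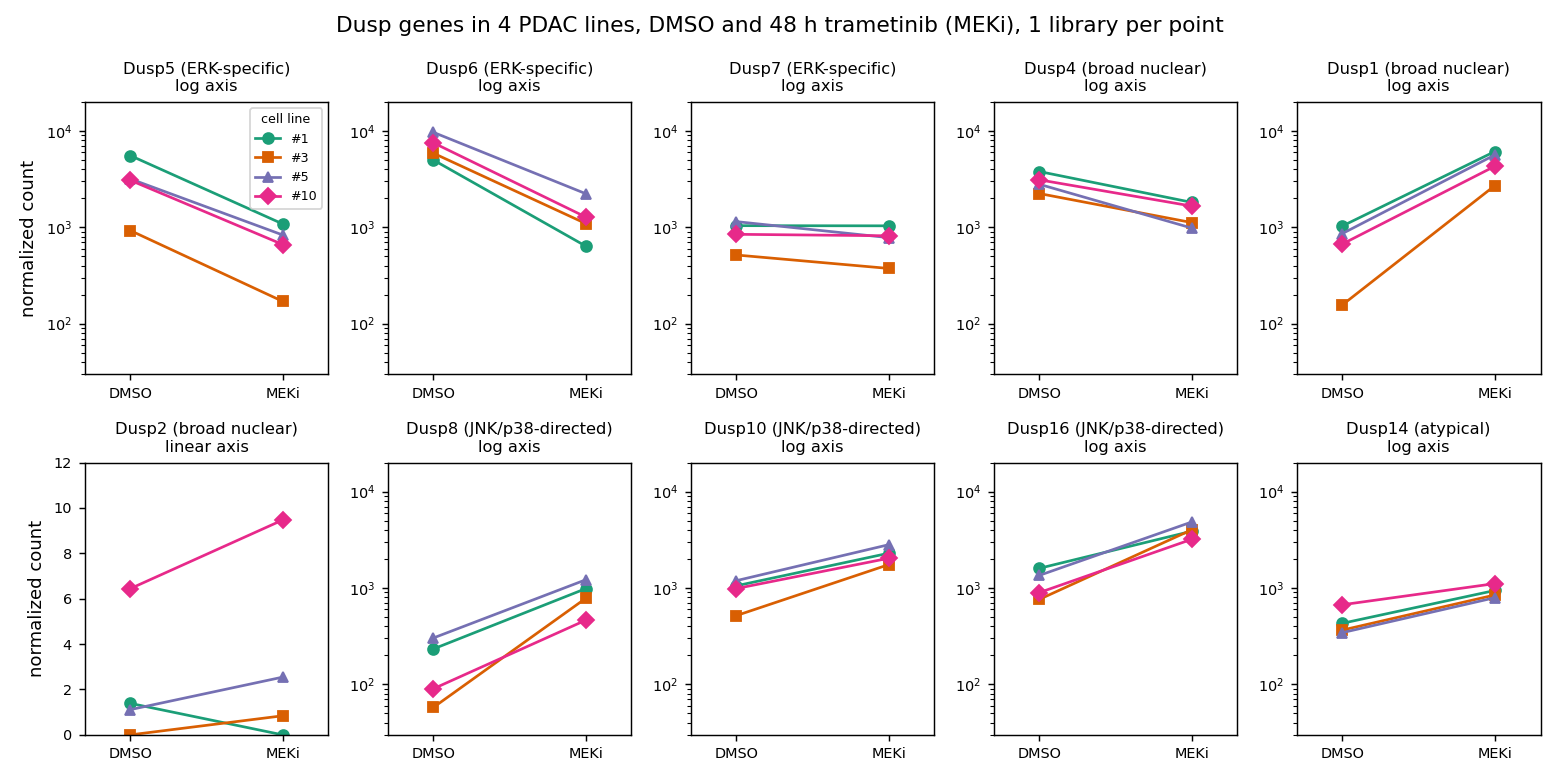
Normalized count of each of the 10 Dusp genes (y axis, log scale except for Dusp2, which is linear) with DMSO and after 48 h with trametinib (MEKi), with 1 line per cell line and 1 library per point. Dusp5, Dusp6 and Dusp4 fell and Dusp1, Dusp8, Dusp10, Dusp16 and Dusp14 rose in all 4 lines, while Dusp2 stayed below 10 normalized counts.

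Among the ERK-specific phosphatases, Dusp6 and Dusp5 fell about 5-fold and Dusp7 did not pass the test. Dusp6 (ENSMUSG00000019960.8, chr10:99263231-99267489, plus strand), the cytoplasmic ERK phosphatase, stood in lines #1, #3, #5 and #10 at 4992, 5869, 9662 and 7519.8 normalized counts with DMSO and at 638, 1094, 2231 and 1278 with MEKi. The highest MEKi library was below the lowest DMSO library. The fall was 5.72-fold, a log2 fold change of -2.51 (SE 0.14, 95% interval -2.85 to -2.18, limma adjusted p = 0.00012), and 116 of the 15888 genes tested, 0.730%, fell further. By line the log2 fold change was -2.97, -2.42, -2.11 and -2.56, so that line #1, with the least Dusp6 in DMSO, also lost the largest share of it.

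Dusp5 (chr19:53529109-53542431, plus strand), the nuclear ERK phosphatase, had, in lines #1, #3, #5 and #10, DMSO values of 5544, 926, 3177 and 3072 normalized counts. With MEKi the values were 1083, 170.5, 832 and 663. The treatments overlapped, because line #3 with DMSO was below line #1 with MEKi, yet within each line the value fell. The fall was 4.70-fold (log2 fold change -2.23, SE 0.11, 95% interval -2.50 to -1.97, limma adjusted p = 9.4e-05), and 174 genes, 1.10% of those tested, fell further. The SE was the smallest among the 9 members tested, and the changes of single lines lay between -2.43 and -1.93. A non-coding gene on the other strand, AC137853.2, overlaps Dusp5. It has no entry under that name in the deposited data, so no values are given.

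Dusp7 (chr9:106368632-106375724, plus strand), the nearest relative of Dusp6 in its cytoplasmic location and substrate, had 1039, 516, 1145 and 846 normalized counts with DMSO and 1035, 374, 781 and 816 with MEKi. Lines #3 and #5 were lower by 0.46 and 0.55 on the log2 scale, and lines #1 and #10 by 0.01 and 0.05. The log2 fold change was -0.27 (95% interval -0.58 to 0.05) and did not pass (limma adjusted p = 0.13, unadjusted p = 0.083), although the value was lower in 4 of 4 lines. The interval includes 0 and lies wholly above that of Dusp6. Within a line, the log2 fold change of Dusp7 was above that of Dusp6 by 2.96, 1.96, 1.56 and 2.50 in lines #1, #3, #5 and #10 (mean 2.25 ± 0.61, SD, n = 4).

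The nuclear phosphatases of broad substrate range went in opposite directions. Dusp4 (chr8:34807297-34819894, plus strand), which acts on ERK and JNK, had 3787, 2238, 2792 and 3106 normalized counts with DMSO and 1813, 1119, 981 and 1659 with MEKi. The groups did not overlap, and the fall was 2.17-fold (log2 fold change -1.12, SE 0.12, 95% interval -1.40 to -0.84, limma adjusted p = 0.00066), with line #5 at -1.51 and the others between -1.06 and -0.90. It was a smaller change than those of Dusp5 and Dusp6, and 7.29% of all genes tested fell further.

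Dusp1 (ENSMUSG00000024190.7, chr17:26505590-26562128, minus strand), an immediate-early and stress-induced gene whose product prefers p38 and JNK, had the largest change of the group. In lines #1, #3, #5 and #10 it stood at 1031, 157, 861 and 671 normalized counts with DMSO and at 6105, 2703, 5627 and 4294 with MEKi. Every MEKi library was above every DMSO library, and the rise was 8.07-fold (log2 fold change 3.01, SE 0.26, 95% interval 2.40 to 3.62, limma adjusted p = 0.00037), with 254 genes, 1.60% of those tested, rising further. Line #3, lowest with DMSO, rose by 4.10 on the log2 scale and the other lines by 2.57 to 2.71. Within a line, Dusp1 moved above Dusp4 by a log2 difference of 3.63, 5.10, 4.21 and 3.58 (mean 4.13 ± 0.71, SD, n = 4). An exon of Dusp1 overlaps Ergic1 on the other strand, and Ergic1 stood at 6298 to 8183 normalized counts with DMSO and 6158 to 7682 with MEKi (log2 fold change -0.05, limma adjusted p = 0.62).

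Dusp2 (chr2:127336159-127338376, plus strand), a phosphatase best known from activated leukocytes, was near the limit of detection. Its values were 1.39, 0, 1.11 and 6.45 normalized counts with DMSO and 0, 0.841, 2.54 and 9.47 with MEKi in lines #1, #3, #5 and #10. In estimated reads this is at most 6.7 with DMSO and 9.8 with MEKi, both in line #10. The other 6 libraries had 3.2 estimated reads or fewer, and a floor of 3 reads is worth 2.33 to 3.72 normalized counts depending on the library, and no fold change is given.

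All 3 phosphatases directed at JNK and p38 rose. Dusp8 (chr7:142079490-142095843, minus strand), a JNK-directed member first known from brain, had 233, 57.7, 303 and 90.2 normalized counts with DMSO and 985, 782, 1217 and 464 with MEKi in lines #1, #3, #5 and #10. The rise was 5.82-fold (log2 fold change 2.54, SE 0.30, 95% interval 1.84 to 3.24, limma adjusted p = 0.00087), and 2.67% of all genes tested rose further. Line #3 rose by 3.74 on the log2 scale against at most 2.35 in the other lines, and lines #3 and #10 were the low ones with DMSO. The overlapping gene on the other strand, Gm32786, reached at most 4.05 normalized counts.

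Dusp16 (chr6:134715468-134792625, minus strand), a JNK phosphatase that shuttles between nucleus and cytoplasm, had 1602, 763, 1353 and 897 normalized counts with DMSO and 3884, 4019, 4841 and 3204 with MEKi. The lowest MEKi library, line #10 at 3204, was above the highest DMSO library, line #1 at 1602. The rise was 3.57-fold (log2 fold change 1.84, SE 0.17, 95% interval 1.43 to 2.24, limma adjusted p = 0.00048), from 1.28 in line #1 to 2.40 in line #3, with 5.70% of all genes tested rising further.

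Dusp10 (chr1:184013302-184075636, plus strand), a phosphatase of p38 and JNK, had 1055, 518, 1192 and 988 normalized counts with DMSO and 2298, 1749.9, 2815 and 2037 with MEKi. The groups did not overlap, and the rise was 2.45-fold (log2 fold change 1.29, SE 0.13, 95% interval 0.97 to 1.61, limma adjusted p = 0.00063), with 10.4% of all genes tested rising further. Line #3 again rose most, by 1.75, against 1.04 to 1.24 in the others.

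Dusp14 (chr11:84048041-84069261, minus strand), the atypical member, had 431, 366, 345 and 671 normalized counts with DMSO and 943, 847, 793 and 1111 with MEKi. Line #10 was highest in either treatment. The rise was 2.09-fold (log2 fold change 1.07, SE 0.12, 95% interval 0.77 to 1.36, limma adjusted p = 0.00088). It was 0.73 in line #10 and 1.13 to 1.21 in the others, and 14.0% of all genes tested rose further.

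**Figure D2:**
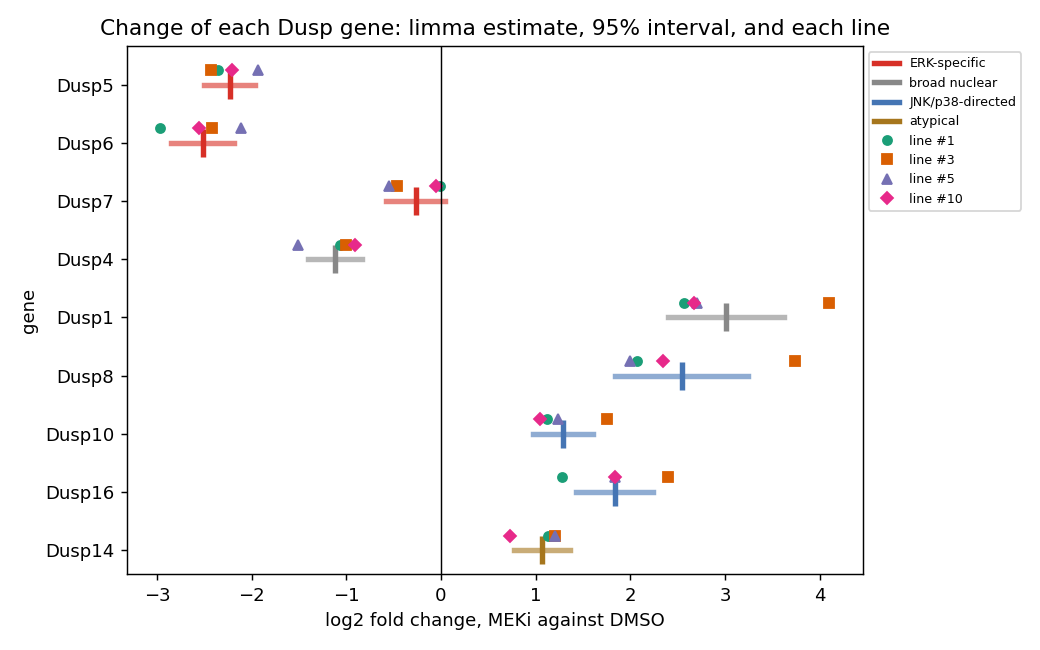
Log2 fold change, MEKi against DMSO (x axis), of the 9 Dusp genes that passed the filter on low values. Upright bars and horizontal lines are the limma estimate and its 95% interval, colored by class, and the symbols above them are the 4 cell lines. Dusp5, Dusp6 and Dusp4 lie below 0 and Dusp1, Dusp8, Dusp10, Dusp16 and Dusp14 above it in every line, and the interval of Dusp7 includes 0.

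The ERK-specific and the JNK/p38-directed genes were then set against each other within each line, as means over 3 genes each. The mean log2 fold change of Dusp5, Dusp6 and Dusp7 was -1.78, -1.77, -1.53 and -1.61 in lines #1, #3, #5 and #10 (mean -1.67 ± 0.12, SD, n = 4). For Dusp8, Dusp10 and Dusp16 it was 1.49, 2.63, 1.69 and 1.74 (1.89 ± 0.51). The difference, ERK-specific minus JNK/p38-directed, was -3.27, -4.40, -3.23 and -3.35 (-3.56 ± 0.56), the same sign in 4 of 4 lines and several times the spread between lines. In each line the least increased JNK/p38-directed gene also lay above the least decreased ERK-specific gene, by 1.13, 2.22, 1.79 and 1.09. The lines differed more in the rise of the JNK/p38-directed genes than in the fall of the ERK-specific ones, with line #3 apart in the former. These genes were listed with their changes known, so the contrast is given as a description without a p-value.

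Levels were compared between genes after division by transcript length, as normalized counts per kb. With DMSO, Dusp6 was highest at 2507 ± 735 (SD, n = 4), followed by Dusp5 at 1286 ± 763 and Dusp4 at 1088 ± 236. The ranges of these 3 neighbors overlapped in turn, and within every line all 3 were above the other members. Dusp1 (342 ± 190 per kb), Dusp10 (336 ± 105), Dusp14 (288 ± 95.3), Dusp7 (276 ± 86.0) and Dusp16 (226 ± 76.6) followed, with ranges over the lines that overlapped from each to the next. Within every line, though, Dusp10 was above Dusp7 and Dusp7 above Dusp16, at 378, 323 and 314 per kb in line #1 and 185, 161 and 149.5 in line #3, for example. Dusp8, at 35.6 ± 24.3, and Dusp2, at 1.38 ± 1.77, lay below them with no overlap.

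With MEKi the order was led by Dusp1 at 2353 ± 767 normalized counts per kb, with no overlap with the next gene. Dusp10 (797 ± 162 per kb) and Dusp16 (781 ± 132) followed, then Dusp14 (588 ± 88.8), Dusp4 (508 ± 148), Dusp6 (469 ± 240), Dusp5 (278 ± 156), Dusp7 (234 ± 85.8) and Dusp8 (179 ± 66.5), each overlapping its neighbor. By the means over the lines, Dusp6, first with DMSO, was sixth after treatment. Its place with MEKi differed between lines. In line #1 Dusp6 stood at 228 per kb, below Dusp5 at 438 and Dusp7 at 322. In line #5 it stood at 798 per kb, above Dusp14 at 505 and Dusp4 at 358. Dusp2 remained last, at 1.99 ± 2.66.

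Summed over the 10 genes, the level per kb was 6386 ± 1562 with DMSO and 6189 ± 1304 with MEKi (SD, n = 4). Within lines #1, #3, #5 and #10 the sum went from 7266 to 7107, 4110 to 4460, 7524 to 7280 and 6644 to 5909. It was thus lower with MEKi in every line but #3, and its makeup changed. ERK-specific genes made up 63.7% ± 3.24 of the sum with DMSO (59.9 to 67.7%) and 15.6% ± 2.70 with MEKi (12.9 to 18.9%). JNK/p38-directed genes went from 9.23% ± 1.02 (8.25 to 10.2%) to 28.9% ± 5.04 (24.6 to 35.4%). Dusp1 alone went from 4.97% ± 2.21 to 37.2% ± 5.30, and with the JNK/p38-directed genes from 14.2% ± 3.04 to 66.1% ± 3.63. Dusp6 went from 40.5% ± 11.5 to 7.67% ± 3.26. The lines differed in which ERK phosphatase led with DMSO. In line #1 Dusp5 had 30.9% and Dusp6 24.6% of the sum, and in line #3 Dusp5 had 9.11% and Dusp6 51.1%. Shares are of transcript, not of protein or phosphatase activity.

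**Figure D3:**
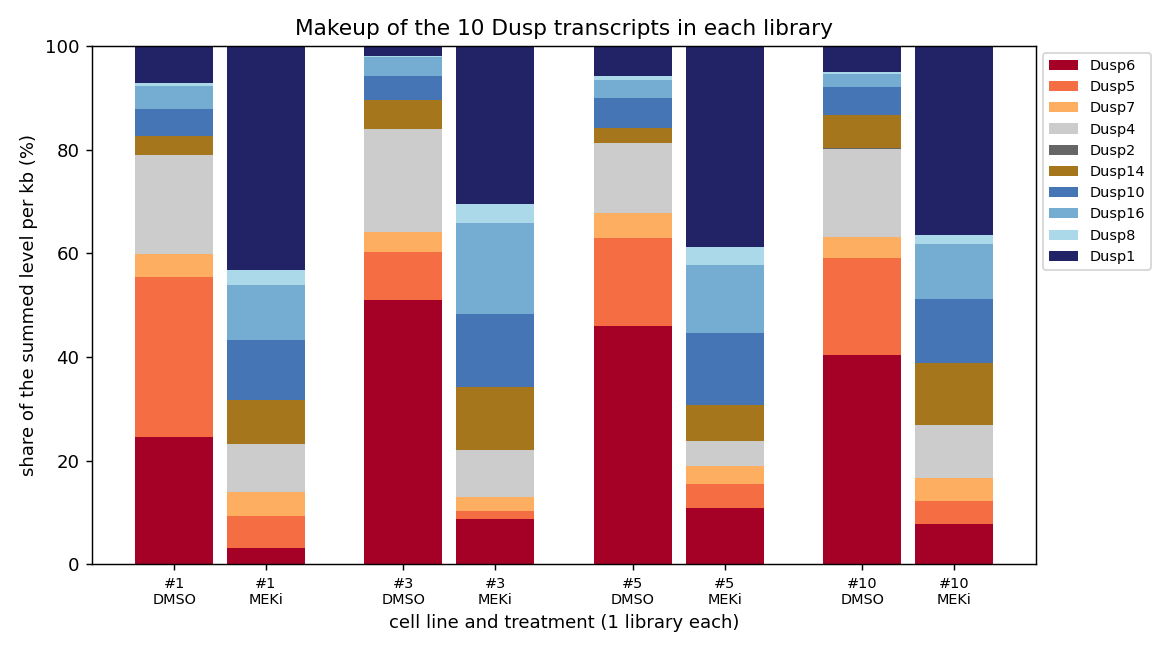
Share of each Dusp gene in the summed normalized count per kb of the 10 genes (y axis, percent) in each library (x axis, cell line and treatment). The ERK-specific genes (reds and orange) took 59.9 to 67.7% of the sum with DMSO and 12.9 to 18.9% with MEKi, and Dusp1 (dark blue) 30.5 to 43.2% with MEKi.

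Line #3 was low in many of these genes at baseline. It had the lowest value with DMSO for 7 of the 9 members tested, where 30.7% of all genes tested were lowest in that line, and the lowest with MEKi for 4 of 9, against 37.5%. All 5 members that rose had their largest rise in line #3, against 45.6% of the 4341 genes that rose, although for Dusp14 lines #3 and #5 were nearly tied at 1.21 and 1.20. The 5 are not independent of each other, since they share the same libraries. Depth in line #3, at an estimated 32200000 reads with DMSO and 32700000 with MEKi, was within the range of the other libraries.

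Other phosphatases of the pathway were examined next, and the counts of this and the following lists are to be read against the 27.3% of all genes tested that rose and the 25.6% that fell. Of 19 further genes of the dual-specificity family, 18 were found in the deposited data and 13 passed the filter. Of these 13, 3 rose, 3 fell and 7 did not pass the test, with a median log2 fold change of 0.24. Dusp3, a small phosphatase that acts on ERK and JNK, rose most, from a mean of 1529 to 3398 normalized counts (log2 fold change 1.16, limma adjusted p = 0.00039). Dusp9, the closest relative of Dusp6 and Dusp7, fell most, from 544 to 285 (-0.97, adjusted p = 0.0035). Of 3 tyrosine phosphatases that bind MAP kinases through a kinase interaction motif, 2 passed the filter and 1 fell. It was Ptprr, from 415 to 62.4 normalized counts (-2.79, limma adjusted p = 0.00024).

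The kinases themselves were examined in the same way. Of 13 MAP kinases, 12 passed the filter, 3 rose, 2 fell and 7 did not pass, with a median log2 fold change of 0.07. These 5 of 12 calls stand beside 53.0% called over all genes tested, and the difference was not tested. Mapk4, an atypical kinase, rose most (1.91, limma adjusted p = 0.0014), and Mapk6, its relative, fell most (-0.49, adjusted p = 0.0072). Of 7 MAP kinase kinases, 3 fell and 4 did not pass, and Map2k3, which activates p38, fell most, from 4868 to 2622 normalized counts (-0.90, adjusted p = 0.00052). Among 14 genes for MAP kinase scaffolds or for upstream kinases of JNK and p38, 13 passed the filter, 4 rose, 1 fell and 8 did not pass. Mapk8ip1, a JNK scaffold, rose most (1.34, adjusted p = 0.0012) and Ksr1, a scaffold of RAF, MEK and ERK, was the gene that fell (-0.56, adjusted p = 0.0061).

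Beside the Dusp genes, most of the listed ERK output genes fell and most of the listed AP-1 and JNK output genes, which include AP-1 subunits, rose, where 25.6% of all genes tested fell and 27.3% rose. The lists were drawn up with results known, and the AP-1 subunits Fos and Fosl1, which fell (log2 fold changes of -1.89 and -3.73), were placed with the ERK outputs, while Jun, which rose (1.76), was placed with AP-1, so the contrast between the lists partly follows from that sorting. Of 18 ERK output genes, 17 passed the filter, 14 fell, none rose and 3 did not pass, with a median log2 fold change of -1.89. Etv4, an ETS factor induced by ERK, fell most, from a mean of 2625 to 48.6 normalized counts (-5.92, limma adjusted p = 0.00020). ERK feedback inhibitors were mixed, since 5 of 13 fell, 2 rose and 6 did not pass, with a median of -0.16. Spry4, a Sprouty inhibitor of RAS signaling, fell from 936 to 79.3 normalized counts (-3.61, adjusted p = 0.00021), and Il17rd, an inhibitor of FGF signaling, rose from 71.2 to 199 (1.56, adjusted p = 0.0017). Of 14 AP-1 and JNK output genes, 13 passed the filter, 9 rose, 1 fell and 3 did not pass, with a median of 1.02. Gadd45b, a stress-induced activator of p38 and JNK signaling, rose from 494 to 3199.5 normalized counts (2.59, adjusted p = 0.00022), and Fosb fell from 219 to 81.8 (-1.19, adjusted p = 0.012). Among 15 listed ETS, SRF and other factors of inducible genes, 13 were found in the deposited data, and these 13 passed the filter. Of them, 6 rose, 4 fell and 3 did not pass the test. Crem, a CRE-binding factor, rose most (1.54, limma adjusted p = 0.00055), and Elf3, an epithelial ETS factor, fell most (-0.90, adjusted p = 0.037).

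**Figure D4:**
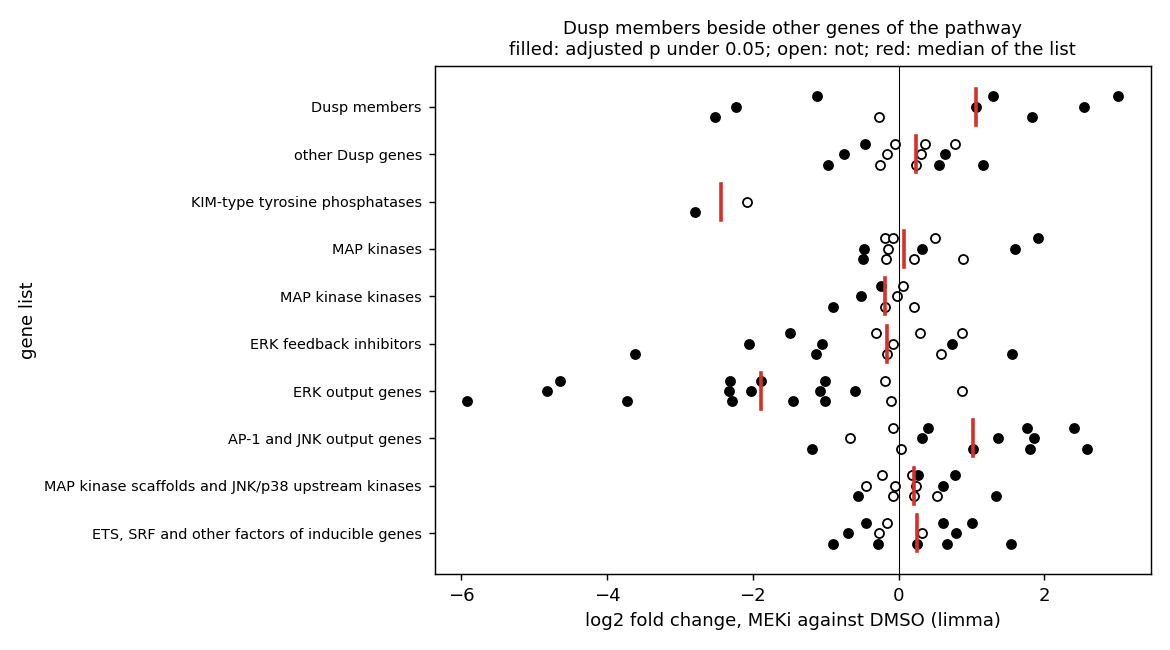
Log2 fold change, MEKi against DMSO, from limma (x axis) of the tested genes of each list (y axis), with filled points for an adjusted p under 0.05, open points for the others and a red bar for the median of the list. The Dusp members spread from -2.51 to 3.01, and the ERK output genes had a median of -1.89 and the AP-1 and JNK output genes one of 1.02.

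The genes whose levels followed Dusp6 and Dusp16 most closely over the 8 libraries were found by Pearson's r of log2(normalized count + 1). Closest to Dusp6 were Ftsj3 (r = 0.991), Smyd5, Drg1, Ints13 and Eepd1 (0.982). Their own log2 fold changes were smaller than that of Dusp6, at -0.75 for Ftsj3, -0.83 for Smyd5, -0.39 for Drg1, -0.50 for Ints13 and -2.14 for Eepd1. Closest to Dusp16 were Hspg2 (r = 0.989), Hmg20b, Rab11fip2, Glipr1 and Igfbp7 (0.987). These rose by 1.42, 0.90, 1.07, 3.52 and 2.28 on the log2 scale. The 8 libraries fall into 4 per treatment, so r takes in the treatment difference, and no other Dusp gene was among these neighbors.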

How the data were processed

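Stranded mRNA libraries (TruSeq) of 4 lines, each with DMSO and MEKi, were sequenced by the authors. The authors deposited normalized counts per gene symbol, a signal scaled so that libraries can be compared. The submitters' processing notes name CASAVA 2.17, Salmon 0.12, DESeq2 1.18 and build mm10, without their roles. Whole reads were not recovered, so no count test was run. All 8 columns were used.

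Values were transformed as log2(normalized count + 1), a scale that understates changes of low genes. Genes whose mean reached 10 (15888 genes) were tested, two-sided, with limma 3.58.1 in R 4.3.3 (eBayes with trend, cell line as a block, Benjamini-Hochberg, threshold 0.05). The fit was tested on simulated data. The number in the sample titles is that of the cell line, so libraries were paired by line, and deviations from the treatment means correlated at 0.631 to 0.724 across genes within a line. The members and lists were chosen with earlier results of these data known. Besides the 10 members, the text names the largest rise and the largest fall past the threshold in each list and the 5 genes most correlated with Dusp6 and with Dusp16. Any other gene was named after its values were seen. Only counts and medians are given for lists. Some items are not reported here.

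Positions and transcript lengths (longest principal coding transcript) are from GENCODE M21 on GRCm38, matched by symbol, and promoter sequences from RefSeq GRCm38.p6. Tables were made with Python 3.11.15, numpy 2.4.6 and pandas 2.3.3, and plots with matplotlib 3.10.9. Alternatives were pseudocounts of 0.1 and 5, equal totals, median centring, quantile normalization, no filter, a filter at 50, no replicate block, eBayes without trend and leaving out each line, and for the contrast of the classes also Dusp1 added to the JNK/p38-directed genes and only members that pass the filter.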

Additional observations from a re-analysis of the deposited data

Results flagged for a closer look

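Single lines that lay far from the other 3 were sought in the DMSO values, the MEKi values and the log2 fold changes of the 9 members tested, 27 groups of 4 values in all, of which chance is expected to mark about 1.35 (1 in 20). Of these, 2 were marked. For Dusp1 the log2 fold change in line #3 was 4.10 against 2.57 to 2.71 in the other lines, and the gap took up 0.908 of the range, above Dixon's 95% critical value for 4 samples. For Dusp14 the log2 fold change in line #10 was 0.73 against 1.13 to 1.21 in the other lines, with a gap of 0.837 of the range. In either case the gene rose in 4 of 4 lines.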

How the results depend on the processing

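Under 13 alternatives each, the 9 members tested kept their direction and their side of the threshold, and 5 members were higher and 3 lower throughout. Log2 fold changes ranged from -2.33 to -2.11 for Dusp5, -2.65 to -2.36 for Dusp6, -0.36 to -0.14 for Dusp7, -1.19 to -0.99 for Dusp4, 2.65 to 3.16 for Dusp1, 2.14 to 2.72 for Dusp8, 1.14 to 1.42 for Dusp10, 1.65 to 2.02 for Dusp16 and 0.99 to 1.19 for Dusp14. The ERK-specific minus JNK/p38-directed difference was -3.84 with Dusp1 added to the second group and ranged from -3.67 to -3.28 when a line was left out, with the latter value without line #3. Other pseudocounts and quantile normalization gave -3.57 to -3.54, and equal totals, median centring and the filter cannot move it. The adjusted p of Dusp7 ranged from 0.065 to 0.61, and that of Dusp5 reached 0.034 with no replicate block, the highest among the 8 members called. Over all genes, the fit with no replicate block, which ignores the pairing by line, called 2205 genes higher and 2347 lower, against 4341 and 4075 in the paired fit. Equal totals shifted the median of all genes by 0.126 on the log2 scale and gave 5315 higher and 3284 lower, 61.8% of calls higher against 51.6%, while quantile normalization, which shifted it by -0.103, gave 3779 and 4233 (47.2% higher) and median centring 3848 and 4492 (46.1% higher). Leaving out a line gave 3391 to 4188 genes higher and 3270 to 3990 lower. Depth limits Dusp2, which stayed under 10 estimated reads in every library, and with 1 library per line and treatment the spread within a line is unknown.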

Other observations

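The kinases on which the JNK/p38-directed phosphatases act were looked up after their values were seen. Mapk8 (JNK1) had a mean of 1204 normalized counts with DMSO and 1379.7 with MEKi (log2 fold change 0.22, limma adjusted p = 0.13), Mapk9 (JNK2) 1777 and 1573 (-0.17, adjusted p = 0.13) and Mapk14 (p38 alpha) 4198 and 3700.4 (-0.18, adjusted p = 0.097), each with the same direction in 4 of 4 lines. Of the other p38 genes, the limma log2 fold change was 0.49 for Mapk12 (adjusted p = 0.052, higher in 4 of 4 lines), 0.89 for Mapk13 (adjusted p = 0.14, higher in 3 of 4) and -0.07 for Mapk11 (adjusted p = 0.62, higher in 2 of 4). The JNK gene Mapk10, at means of 3.40 and 5.37 normalized counts, was below the filter. None of the 6 tested passed the threshold in limma.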
